A study of Mus musculus with 6 samples.

Results

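Gasdermins are proteins that can punch pores in the plasma membrane. Most have an N-terminal pore-forming part that is held inactive by a C-terminal part, and a protease that cuts between them frees the pore-forming part, which inserts into the membrane, releases cytokines and can end in the lytic cell death called pyroptosis. Gsdmd is the member cut by inflammatory caspases downstream of inflammasomes, Gsdme is cut in cells undergoing apoptosis, Gsdma is best known from the epithelia of skin and upper gut, and the Gsdmc genes from the intestine. Mice carry 3 Gsdma paralogs side by side where humans have a single gene, so the mouse genome gives several near copies to tell apart.

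The genes described here are Gsdma, Gsdma2, Gsdma3, Gsdmc and Gsdmd, 5 of the 22298 genes in the deposited expression table and 5 of its 10 gasdermin genes. They were chosen by name with the results of this experiment known, since the change of Gsdma between the groups drew attention to the family. Their differences between the groups are therefore given as a description, and no p-value is read from them. The other 5 gasdermins of the table, Gsdmc2, Gsdmc3, Gsdmc4, Gsdme and Pjvk, were not part of that choice.

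The samples were 6 RNA preparations from MIN6 cells, an insulin-secreting mouse beta-cell tumor line, 3 kept as controls and 3 given chronic epinephrine, the adrenal stress hormone. The study asked how long exposure to the hormone affects the work and fate of beta cells. Chronic exposure meant 100 nM epinephrine for 3 days and then 2 days without it. The stage at which cells were lysed for sequencing is not given, so these samples may or may not include the days without epinephrine.

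Both groups come from a single cell line, and the labels do not say how the samples of a group were grown. The study's methods define the samples of a group as independent and its data as biological replicates. Total expected counts (the authors' estimates of the fragments that belong to each gene) were 15017065, 17457583 and 16059175 in controls 1, 2 and 3 and 16954483, 18127171 and 15256957 in epinephrine samples 1, 2 and 3. A count of 0 was taken to allow up to 3 counts, which is 0.165 to 0.200 CPM (counts relative to each library's own total) and covers counting error only. All 14 beta-cell markers on the list checked, among them Ins1, Ins2 and Pdx1, lay above that limit in every sample.

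Gsdma, Gsdma2 and Gsdma3 lie on the plus strand of chromosome 11 in GRCm38, the build named in the labels, at chr11:98664351-98677708, chr11:98646759-98657964 and chr11:98626360-98638226. GENCODE mouse release 21 gives Gsdma (ENSMUSG00000017204) a single transcript of 2726 bases in 12 exons, and no other gene overlaps it. Gsdmd (ENSMUSG00000022575) is on chromosome 15 at chr15:75862327-75867408, plus strand, with 6 transcripts of which 3 are coding. Gsdmc is on the same chromosome at chr15:63775968-63808759, minus strand.

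How well reads can tell the 3 paralogs apart depends on their sequence. The coding sequences of Gsdma, Gsdma2 and Gsdma3 are 1338, 1329 and 1392 bases long. Gsdma is 90.5% identical to Gsdma2 and 89.8% identical to Gsdma3 over the aligned coding bases, against 58.5% for Gsdma and Gsdmd. All 3 paralogs carry the same base at 1117 of 1314 aligned positions, which is 85.0%. The 60 bases below are a stretch that the 3 genes share base for base. They are coding bases 847 to 906 of Gsdma, in exon 9 of 12 (chr11:98673068-98673127), and lie in exon 8 of 11 in both Gsdma2 (chr11:98654961-98655020) and Gsdma3 (chr11:98635298-98635357). A read lying wholly inside them cannot be placed.
Gsdma, Gsdma2 and Gsdma3: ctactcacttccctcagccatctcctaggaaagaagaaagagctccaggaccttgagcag

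The other extreme is the stretch of the same size that is least alike. It starts at coding base 466 of Gsdma, in exon 4 of 12 (chr11:98669689-98669748), and lies in exon 5 of 11 in Gsdma2 (chr11:98650914-98650973) and exon 4 of 11 in Gsdma3 (chr11:98631211-98631270). Capitals mark the 24 columns at which the 3 genes do not all have the same base.
Gsdma: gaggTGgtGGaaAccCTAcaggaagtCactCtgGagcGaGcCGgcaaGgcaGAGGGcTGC
Gsdma2: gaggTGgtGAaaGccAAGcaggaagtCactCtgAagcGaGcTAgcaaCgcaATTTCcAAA
Gsdma3: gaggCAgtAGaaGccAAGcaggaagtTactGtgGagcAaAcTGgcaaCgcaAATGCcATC
In these 60 bases Gsdma differs from Gsdma2 at 17 and from Gsdma3 at 18 positions, and Gsdma2 differs from Gsdma3 at 14.

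Across the whole Gsdma transcript, 221 of 2677 windows of 50 bases (8.26%) also occur in another annotated gene. With windows of 100 bases this drops to 48 of 2627 (1.83%), and all 48 are shared with Gsdma2. The longest run that Gsdma and Gsdma2 have in common is 147 bases, against 78 bases for Gsdma and Gsdma3. No window of 50 bases of Gsdmd or Gsdme occurs in another gene. The Gsdmc group is harder to separate, with 16.1% of the 50-base windows of Gsdmc and 51.3% of those of Gsdmc2 found in another gene. The counts of all 10 gasdermins were whole numbers in every sample, with no fragment shared out between genes in the deposited values, and how multiply placed reads were treated is not given in the sources used here.

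Gsdma was the gasdermin whose mRNA differed most between the groups. The deposited table gives 170, 210 and 211 counts in controls 1, 2 and 3, and 1007, 908 and 930 counts in epinephrine samples 1, 2 and 3. Scaled by TMM, a normalization that sets the bulk of genes level between samples, these are 11.0, 12.0 and 13.2 CPM in the controls and 59.7, 50.9 and 61.5 CPM after epinephrine. The groups are far apart, and the lowest epinephrine sample, number 2, is still well above the highest control, number 3.

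The mean level of Gsdma was 12.1 ± 1.10 CPM (SD, n = 3) in controls and 57.4 ± 5.68 CPM (SD, n = 3) after epinephrine, a ratio of 4.75. The log2 fold change fitted by edgeR was 2.25 with a standard error of 0.12. Counting error alone would give a coefficient of variation of 7.15% at the control counts and 3.25% at the epinephrine counts. The observed values were 9.12% and 9.91%, each from 3 samples.

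Among all 12747 genes with enough counts to be tested, edgeR's quasi-likelihood test called 257 genes higher (2.02%) and 78 lower (0.612%) at a Benjamini-Hochberg adjusted p (FDR) under 0.05. Of the 5 chosen genes, 2 passed the filter on low counts, Gsdma and Gsdmd, and 1 of them, Gsdma, was among the genes called higher. Because the genes were chosen on this very contrast, nothing is read from that count. By size of fold change Gsdma ranked 13 of all genes tested and 9 of those called higher. The 5 largest fitted values belonged to Acta1 (5.07), Ostn (3.85), Tpm2 (3.82), Ubap1l (3.00) and Des (2.62). This order changed with the scale used, as described below. Acta1, Tpm2 and Des, which are muscle structural genes, had groups that overlapped, whereas those of Ostn, Ubap1l and Gsdma did not. Ostn and Ubap1l were far lower in level than Gsdma, at most 2.35 and 3.24 CPM in any sample.

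**Figure D1:**
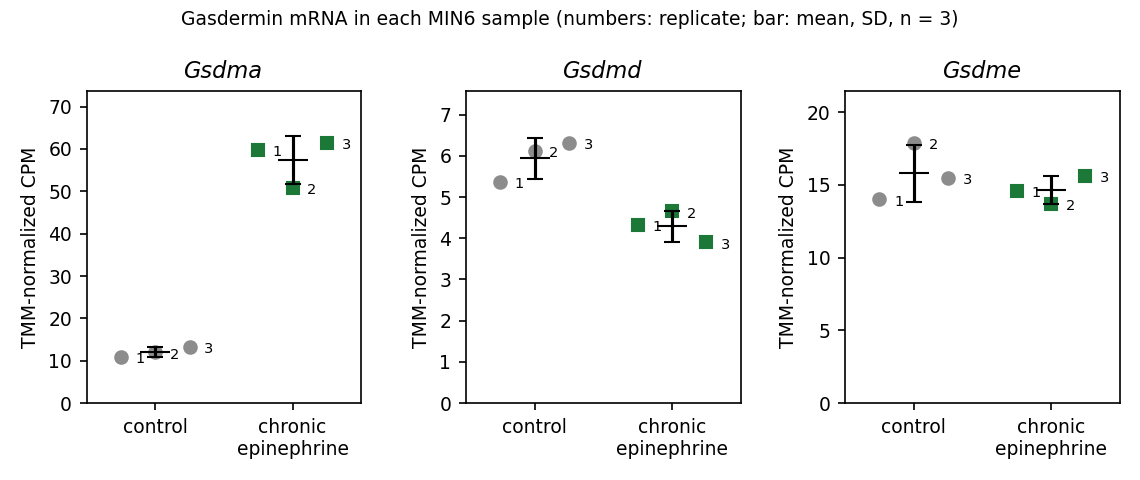
Level of Gsdma, Gsdmd and Gsdme in each sample in TMM-normalized CPM (vertical axes start at 0), grey circles for the 3 controls and green squares for the 3 chronic epinephrine samples, with the mean and SD as bars. Gsdma lies between 11.0 and 13.2 in controls and between 50.9 and 61.5 after epinephrine, Gsdmd is lower in every epinephrine sample, and the groups of Gsdme overlap.

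The other 2 Gsdma paralogs were at or next to zero. Gsdma2 had 0, 1 and 1 counts in controls 1, 2 and 3 and 0, 2 and 3 in the epinephrine samples, 7 counts in all, with means of 0.0399 and 0.103 CPM. These values lie at or under the limit that a count of 0 allows, so no fold change is given. Gsdma3, known for mouse mutants with hair loss, had 0 counts in all 6 samples. Gsdmc, the first of the Gsdmc group, also had 0 counts in all 6 samples. A count of 0 in a sample leaves room for 0.165 to 0.200 CPM of either gene, depending on the sample.

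Gsdmd, the pore-former of inflammasome signaling, was present at a low level in every sample. It had 83, 107 and 101 counts in controls 1, 2 and 3 and 73, 83 and 59 counts in the epinephrine samples. In CPM these were 5.37, 6.12 and 6.32 in controls and 4.33, 4.65 and 3.90 after epinephrine. The groups did not overlap and lay in the opposite order to those of Gsdma. Groups also did not overlap for genes that edgeR did not call, such as Nek7 and Lamtor1. The share of such genes over all genes was not counted. Epinephrine sample 3, the highest for Gsdma, was the lowest for Gsdmd, while control 3 was the highest control for both.

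The mean of Gsdmd was 5.94 ± 0.498 CPM (SD, n = 3) in controls and 4.29 ± 0.376 CPM (SD, n = 3) after epinephrine. Its log2 fold change was -0.46 with a standard error of 0.15, and -0.53 when control 1 was left out. The spread within groups, a coefficient of variation of 8.39% in controls and 8.76% after epinephrine, was no larger than the 10.2% and 11.9% that counting error gives at these counts. Its counts were lower than those of Gsdma in every sample, and its counting error was accordingly larger.

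The FPKM values, fragment numbers scaled both by transcript length and by the total of the sample, allow the genes to be set side by side per length. On this scale Gsdma stood at 4.15, 4.41 and 4.82 in controls 1, 2 and 3, Gsdmd at 3.44, 3.50 and 3.6, and Gsdme at 4.34, 5.20 and 5.03. The 3 genes were thus of similar level in control cells, with Gsdmd the lowest in each sample and Gsdma under Gsdme in each. After epinephrine Gsdma stood at 21.79, 18.38 and 22.36 FPKM, Gsdmd at 2.71, 2.56 and 2.16, and Gsdme at 4.86, 4.55 and 5.29.

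The share of Gsdma in the summed FPKM of all 10 gasdermins was 34.4%, 33.3% and 35.4% in controls and 73.7%, 71.7% and 74.1% after epinephrine. The share of Gsdmd was 26.5% to 28.5% in controls and 7.2% to 10% after epinephrine. The sum itself was 12.1, 13.2 and 13.6 FPKM in controls and 29.6, 25.6 and 30.2 FPKM after epinephrine. The ratio of Gsdma to Gsdmd FPKM was 1.21, 1.26 and 1.34 in controls and 8.04, 7.18 and 10.4 after epinephrine. Within the table of each sample, 57.5% to 59.7% of genes had a lower FPKM than Gsdma in controls, against 81.6% to 84.5% after epinephrine.

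**Figure D2:**
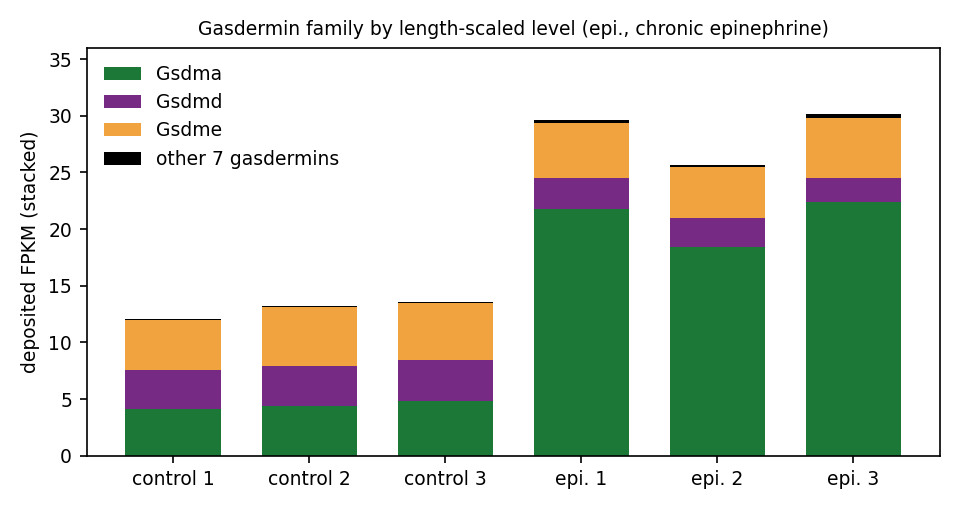
Deposited FPKM of the gasdermins stacked for each sample (vertical axis, from 0), with Gsdma in green, Gsdmd in purple, Gsdme in orange and the other 7 gasdermins in black. The stack is 12.1 to 13.6 FPKM in the 3 controls and 25.6 to 30.2 FPKM in the 3 epinephrine samples, and Gsdma takes 33.3% to 35.4% and 71.7% to 74.1% of it.

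The transcript length behind each FPKM value can be worked back from the count, the FPKM and the total of the sample. For Gsdma it came to 2725 to 2728 bases in every sample, next to the 2726 bases of its annotated transcript, so both deposited scales describe the same change. For Gsdmd it came to 1607, 1751 and 1747 bases in controls and 1589, 1789 and 1790 bases after epinephrine, next to 1792 bases for its longest transcript. These lengths of Gsdmd varied within both groups and the groups overlapped, so its FPKM values carry a length term that its CPM values do not. For Gsdme it came to 3330, 3448 and 3070 bases in controls and 2985, 2970 and 2924 bases after epinephrine, groups that did not overlap.

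Of the gasdermins that were not chosen, Gsdme was the only one with enough counts to be tested. It had 14, 17.9 and 15.5 CPM in controls and 14.6, 13.7 and 15.6 CPM after epinephrine, and these groups overlapped. Its log2 fold change was -0.11 with a standard error of 0.12 (edgeR, FDR = 0.685), and on log2 FPKM, with the shorter lengths after epinephrine given above, its sign turned, to 0.01. Gsdmc2 had 2 counts in control 1 and none elsewhere, and Gsdmc3 had none. Gsdmc4 had 0, 1 and 0 counts in controls and 1, 2 and 3 after epinephrine. Pjvk, a gasdermin needed for hearing, had 1, 1 and 2 counts in controls and 4, 0 and 2 after epinephrine.

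The genes around Gsdma were examined to see whether they differed between the groups too. The 6 nearest protein-coding genes of the table on each side of the Gsdma cluster gave 9 genes with enough counts, and none of the 9 was called by edgeR, where 2.02% of all genes were called higher and 0.612% lower. Of these 9 genes, 3 had an unadjusted p under 0.05 (Thra, Msl1 and Mien1), with FDR from 0.101 to 0.187, and the median log2 fold change of the 9 was -0.06. Over all genes tested, 17.1% had an unadjusted p under 0.05. DESeq2 called 1 of them, the thyroid hormone receptor gene Thra, lower (FDR = 0.0415), where it called 3.09% of all genes with an adjusted p higher and 1.98% lower. Without control 1, edgeR called Thra and Msl1 lower and Mien1 and Nr1d1 higher, in a fit that called 12.1% of all genes tested higher and 9.46% lower.

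Psmd3, which encodes a proteasome subunit and starts 4.85 kb beyond Gsdma, had 103, 73.0 and 81.5 CPM in controls and 84.2, 83.6 and 91.5 CPM after epinephrine. Its log2 fold change was 0.01 with a standard error of 0.13 (edgeR, FDR = 0.979), and the groups overlapped. Ormdl3, a regulator of sphingolipid synthesis on the other side of the cluster, had a log2 fold change of -0.06 with a standard error of 0.09 (edgeR, FDR = 0.792). Lrrc3c, the gene nearest to the cluster on that side at 26.8 kb, and Csf3, just beyond Psmd3, had no counts in any sample.

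**Figure D3:**
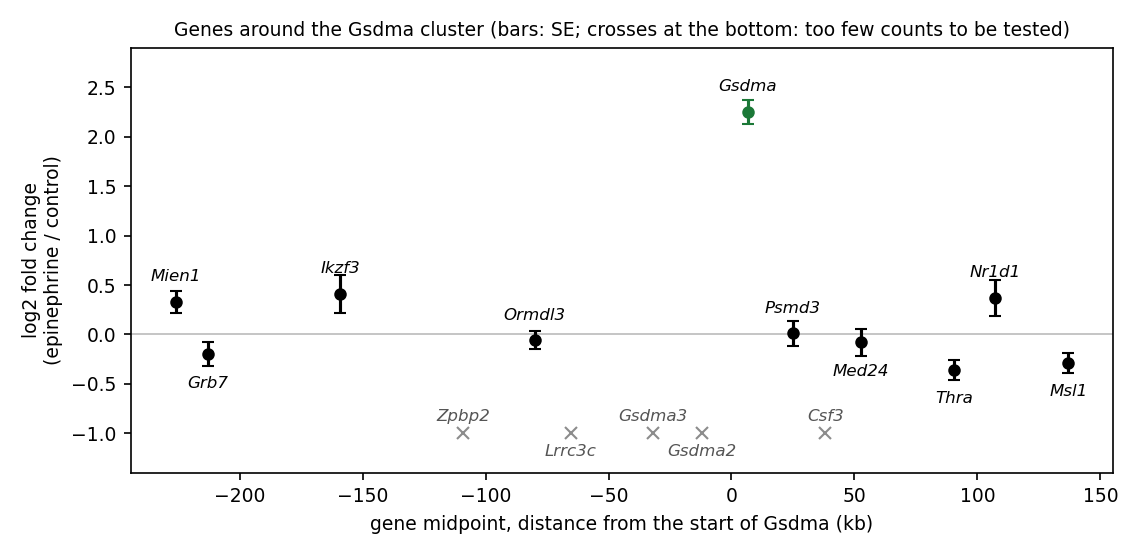
Log2 fold change (epinephrine over control, vertical axis, with its standard error) of the genes around the Gsdma cluster against the distance of each gene's midpoint from the start of Gsdma in kb (horizontal axis), with Gsdma in green and crosses at the bottom for genes with too few counts to be tested. Gsdma stands at 2.25, and the 9 neighbors tested lie between -0.36 and 0.41.

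None of the 9 tested neighbors of Gsdmd was called by edgeR, where 2.02% of all genes were called higher and 0.612% lower (3 had an unadjusted p under 0.05, against 17.1% of all genes). In the fit without control 1, which called 12.1% of all genes higher, Zc3h3, Eef1d and Top1mt were called higher. Zc3h3, the nearest tested gene on one side at 20.4 kb, had a log2 fold change of 0.26 with a standard error of 0.11 (edgeR, FDR = 0.259). Mroh6, 16.7 kb away on the other side, had too few counts to be tested, at 0.171 to 0.194 CPM in controls and 0.356 to 0.504 CPM after epinephrine. Of the 7 tested neighbors of the Gsdmc cluster, 1 was called higher by edgeR, Lratd2, which lies 2922 kb away (log2 fold change 0.65, SE 0.10, edgeR FDR = 0.0108). It had 17.8 to 20.3 CPM in controls and 28.9 to 31.0 CPM after epinephrine. Its FDR in edgeR rose to between 0.0632 and 0.0969 when control 2 or any epinephrine sample was left out. Lratd2 stayed called under the other 11 of 15 alternatives, DESeq2 among them (FDR = 1.77e-05). Its log2 fold change was 0.62 to 0.71 when 1 sample was left out. The nearest genes on each side of that cluster, Fam49b at 16.8 kb and the growth regulator Myc at 1786 kb, had log2 fold changes of 0.14 (edgeR, FDR = 0.578) and 0.47 (FDR = 0.108). Without control 1, Myc was called higher (0.60) and Asap1 lower (-0.20) as well. An unadjusted p under 0.05 was found for 3 of these 7 genes, Myc, Lratd2 and Asap1, and for 9 of the 25 neighbors tested around the 3 loci.

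The genes that act before, with and after the gasdermins were taken from 8 lists holding 70 genes, all of them in the table. Of these, 45 had enough counts and none was called by edgeR in either direction, against 2.02% higher and 0.612% lower among all genes. An unadjusted p under 0.05 was found for 2 of the 45, Casp9 and Irf1, against 17.1% of all genes tested. DESeq2 called 1, Casp9, lower, against 1.98% of all genes with an adjusted p. Positive log2 fold changes were found for 25 and negative ones for 20, with a median of 0.03. Over all genes tested, 49.5% were positive and the median was -0.0023. Leaving out control 1, the fit in which 21.6% of all genes tested were called, gave 3 listed genes higher and 6 lower, Casp9 and Irf1 among the latter.

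Of the 10 proteases that cut gasdermins or act just before those that do, 5 were tested. All 5 had a negative log2 fold change, where 49.5% of all genes tested had a positive one, and none was called. Casp9, the initiator caspase of the mitochondrial pathway, had 36.4, 32.3 and 34.0 CPM in controls and 29.0, 23.6 and 25.3 CPM after epinephrine. Its log2 fold change was -0.40 with a standard error of 0.11, at FDR = 0.0991 by edgeR and 0.0468 by DESeq2. Casp1, the protease that cuts Gsdmd in inflammasome signaling, was at 0.56 to 1.69 CPM. Gzma, Gzmb and Ctsg, proteases of immune cells, had no counts.

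Among 16 inflammasome sensors and adaptors 6 could be tested and none was called, and the smallest p-values belonged to Nek7, a kinase that binds Nlrp3 (log2 fold change -0.18, edgeR FDR = 0.399), and Naip2, a sensor of bacterial secretion systems (0.19, FDR = 0.457). Nlrp3 itself had no counts in 5 of 6 samples, and Nlrp1a, Nlrp1b and Mefv had none in any. The adaptor Pycard was at 1.36 to 2.25 CPM. Levels within the list ranged widely, with Nek7 at 65.8 to 88.5 CPM, Naip2 at 12.2 to 16.5 CPM and Naip5, a sensor of bacterial flagellin, at 4.98 to 7.35 CPM.

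Of the cytokines and alarmins that leave cells through gasdermin pores, 2 of 5 were tested. The cytokine Il1b had a log2 fold change of 0.33 with a standard error of 0.21 (edgeR, FDR = 0.473), and the alarmin Hmgb1, at 332 to 473 CPM, had -0.03 with a standard error of 0.14 (FDR = 0.939). All 4 transcription factors known to act on Gsdmd had enough counts. All 4 had negative log2 fold changes, where 49.5% of all genes tested had positive ones, with a median of -0.23 and none called. Irf1 had 38.1, 41.1 and 34.7 CPM in controls and 30.5, 31.2 and 32.0 CPM after epinephrine (log2 fold change -0.28, SE 0.09, edgeR FDR = 0.172), and Irf2 had a log2 fold change of -0.30 (FDR = 0.374). Rela had -0.18 with a standard error of 0.15 and Nfkb1 -0.0028 with a standard error of 0.12.

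Of the 13 genes for palmitoylation, assembly of the pore and rupture of the membrane, 12 were tested. Positive log2 fold changes were found for 11, against 49.5% of all genes tested, the median was 0.12 and none was called. Zdhhc5, an enzyme that attaches palmitate to proteins, had 0.21 with a standard error of 0.10 (edgeR, FDR = 0.315), Lamtor1, part of the Ragulator complex, had 0.20 with a standard error of 0.09 (FDR = 0.323), and Ninj1, which drives rupture of the plasma membrane, had 0.20 with a standard error of 0.12 (FDR = 0.430). The 13 genes of the ESCRT machinery, which removes damaged membrane, had a median of 0.01, with 0.10 for Chmp3 (FDR = 0.653) and 0.08 for Chmp4b (FDR = 0.686). In the necroptosis list, 2 of 4 were tested, the pore-former Mlkl at 0.29 (FDR = 0.437) and the kinase Ripk1 at 0.03 (FDR = 0.877).

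**Figure D4:**
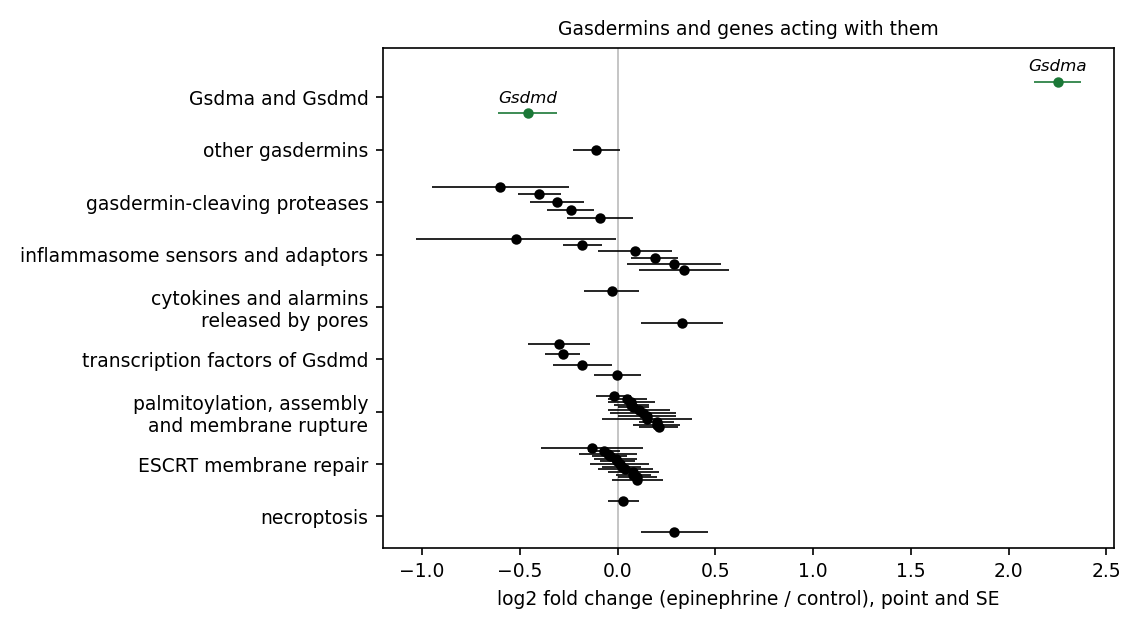
Log2 fold change (epinephrine over control, horizontal axis) with its standard error for the genes tested, in rows by list, with Gsdma and Gsdmd in green at the top. Gsdma stands at 2.25, to the right of all other points, Gsdmd at -0.46, and none of the 45 listed genes (black) was called by edgeR.

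Since Gsdma is best known from skin, markers of other cell types were checked beside it. Of 14 keratinocyte markers 3, Krt10, Sfn and Lor, were above the limit of 3 counts in every sample. All 14 together summed to 4.7 CPM (control 2) to 14.6 CPM (control 3) in controls and to 4.78 to 5.74 CPM after epinephrine. Control 3 stood apart as the highest, and Krt14 was at 0.666, 0 and 1.68 CPM and Krt5 at 0.866, 0.0573 and 1.74 CPM in controls 1, 2 and 3. After epinephrine 7 of the 14 were at 0 in all 3 samples, Krt14, Krt1, Trp63, Ivl, Dsg3, Dsg1a and Krtdap, and Krt5 was at 0, 0.11 and 0 CPM. Col17a1 was at 0.2, 0.229 and 0.436 CPM in controls and 0.354, 0.386 and 0.459 CPM after epinephrine. The part of these genes in the level of Gsdma was not tested. The 10 hair follicle markers summed to at most 0.187 CPM in controls and 0.524 CPM after epinephrine, with Hoxc13, Krt31 and Krt73 at 0. Gut epithelium markers summed to 13.2 to 15.8 and 13.7 to 16.2 CPM, and leukocyte markers to 1.32 to 3.4 and 3.28 to 4.31 CPM. The higher leukocyte sum came from Cd68, a lysosomal protein gene, at 0.732, 0.344 and 0.56 CPM in controls and 3.36, 2.1 and 2.95 CPM after epinephrine, whereas the pan-leukocyte gene Ptprc was at 0.118 CPM or less in every sample. Hepatocyte markers, of which 4 of 12 were above the limit in every sample, summed to 877 to 1530 CPM in controls and 1540 to 1740 CPM after epinephrine. Almost all of this was Ttr, which pancreatic islet cells also express. The other 11 summed to 16.2, 79.9 and 199.5 CPM in controls 1, 2 and 3 and to 9.32, 11.2 and 9.5 CPM after epinephrine, and all 11 had a lower mean after epinephrine. Alb stood at 0.2, 34 and 81.9 CPM in the controls and at no more than 0.441 CPM after epinephrine, so controls 2 and 3 stood apart from control 1 in these genes, while Gsdma was at 11.0 to 13.2 CPM in all 3. Their part in the level of Gsdma was not tested either. In bulk RNA a larger number of cells with a transcript and more of it per cell cannot be told apart.

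The genes whose log2 CPM ran most like that of Gsdma over the 6 samples were found by Pearson correlation, as a description. The 5 highest began with Slc35b1, a transporter of the endoplasmic reticulum (r = 0.9990), and Dusp6, a phosphatase that switches off ERK (r = 0.9990). Next came Lman1, a cargo receptor between endoplasmic reticulum and Golgi (r = 0.9989), and Mfge8, a bridge to dying cells for phagocytes (r = 0.9988). The last of the 5 was Odc1, the first enzyme of polyamine synthesis (r = 0.9986). In all, 42 genes had r above 0.99 and 308 above 0.95. With 3 samples in each of 2 groups, r mostly reflects the gap between the groups.

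These 5 genes reached different sizes. Dusp6 had 6.99, 7.89 and 8.51 CPM in controls and 30.5, 29.2 and 32.8 CPM after epinephrine, a log2 fold change of 1.98. Mfge8 had 8.48, 9.20 and 10.4 CPM in controls and 29.3, 27.5 and 32.0 CPM after epinephrine, a log2 fold change of 1.66. In each of these, as in Gsdma, control 1 was the lowest control and epinephrine sample 2 the lowest of its group. Slc35b1 (0.84), Odc1 (0.57) and Lman1 (0.39) had smaller log2 fold changes. Gsdmd correlated with Gsdma at r = -0.91 over the same 6 samples, which again mostly reflects the gap between the groups. Within the controls the 2 genes ran in the same order, both rising from control 1 to control 3. Within the epinephrine samples they ran in opposite order.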

How the data were processed

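Total RNA of 3 control and 3 chronic epinephrine samples of MIN6 cells was sequenced on an Illumina instrument. The authors deposited 1 table that holds 2 values per sample for each of 22298 genes, an expected count and an FPKM. The expected counts are estimates, not normalized between samples, and 8.34% of them were not whole numbers. In the deposited FPKM the authors divided by transcript length and sample total. The labels name the build GRCm38. The aligner and the counting tool are not given in the sources used here. The dose was taken from the study's methods and the days from its abstract and results. The group and number of each sample came from its label.

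Expected counts were rounded to whole numbers. After filterByExpr (default settings) 12747 genes remained, which were scaled by TMM and tested with the quasi-likelihood test (glmQLFit, glmQLFTest) of edgeR 4.0.16 in R 4.3.3, epinephrine against control, with no other term. P-values were adjusted by Benjamini-Hochberg over every gene in the fit (FDR, threshold 0.05). Standard errors came from dividing the absolute log2 fold change by the root of F. Correlations used log2 CPM with a prior count of 2. The fit was tested on simulated counts first.

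The gasdermins and the lists of pathway and marker genes were chosen with earlier results of these data known. The genes named are all gasdermins of the table, the 2 of each list with the smallest p where none was called (single values of some listed genes are left out here), called or nearest neighbors, the 5 most like Gsdma and the 5 with the largest fold change. Others were named after their values were seen: Casp1, Gzma, Gzmb, Ctsg, Nlrp1a, Nlrp1b, Nlrp3, Mefv, Pycard, Naip5, Rela, Nfkb1, Ninj1, Ormdl3, Asap1, Csf3, Eef1d, Top1mt, Thra, Msl1, Mien1, Nr1d1 and the marker genes. Positions, transcripts and sequences are from GENCODE mouse release 21 (GRCm38), in which 22255 of the gene identifiers were found.

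Alternatives were the size factors of DESeq2, upper quartile scaling or library size only within edgeR, the Wald test of DESeq2 1.42.0, limma-trend (limma 3.58.1) on log2(FPKM + 1) or log2(FPKM + 0.1), no filter, at least 10 counts in every sample, the replicate number as a block, and each sample left out in turn. Replicate numbers were not treated as pairs. Nothing in the labels says that they mark a batch.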

Additional observations from a re-analysis of the deposited data

How the results depend on the processing

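The log2 fold change of Gsdma was positive under all 15 alternatives, from 2.00 (limma on log2 FPKM with 1 added) to 2.33, with 2.19 to 2.33 when 1 sample was left out and 2.25 with a replicate block. That of Gsdmd was negative under all 15, from -0.53 to -0.38. The order of Gsdma and the genes with larger fitted values depended on the scale. On log2 FPKM with 1 added, Ostn (0.94), Tpm2 (1.24), Ubap1l (1.36) and Des (0.55) were below Gsdma, and Acta1 (3.00) was above. With 0.1 added, Acta1 (3.60), Ostn (2.84) and Ubap1l (2.78) were above Gsdma (2.20), and Tpm2 (2.19) and Des (1.54) were below. Leaving out 1 sample gave 1.03 to 6.12 for Des. Deviations of samples with the same number correlated at 0.0502, 0.0677 and -0.0488, so the replicate block, under which 150 genes were called higher and 28 lower, does not rest on a known pairing. The counts over all genes moved far more than the gasdermin values. DESeq2 called 444 higher and 285 lower, and leaving out 1 sample gave 44 to 1572 higher and 1 to 1226 lower. The highest counts came without control 1, whose log2 CPM correlated at 0.979 and 0.978 with the other controls, against 0.993 between those.

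Of the 45 pathway genes tested, leaving out 1 sample gave 0 to 3 higher and 0 to 6 lower, and DESeq2 gave 1 lower. Of the neighbors, leaving out 1 sample gave 0 to 7 higher and 0 to 3 lower. DESeq2 gave 1 neighbor higher and 1 lower. The upper ends came without control 1, where 25 neighbors were tested and 12.1% of all genes were called higher and 9.46% lower. DESeq2 called 3.09% of all genes with an adjusted p higher and 1.98% lower. The sign of 4 small values turned. Gsdme was at 0.01 and 0.01 on log2 FPKM with 1 and with 0.1 added. Psmd3 was at -0.02 with library size only, at -0.0033 and -0.003 on log2 FPKM, and from -0.10 to 0.16 when 1 sample was left out. Leaving out 1 sample gave -0.18 to 0.05 for Hmgb1 and -0.0017 to 0.06 for Ripk1. The cause was not tested. Other small values kept their sign but moved when 1 sample was left out. The ranges were -0.42 to -0.1 for Irf2, -0.24 to -0.1 for Nek7, 0.1 to 0.26 for Naip2 and 0.16 to 0.49 for Il1b. Zdhhc5 ran from 0.13 to 0.29, Lamtor1 from 0.14 to 0.27 and Mlkl from 0.14 to 0.48. Chmp3 ran from 0.01 to 0.18 and Chmp4b from 0.03 to 0.11. Among the neighbors, Fam49b ran from 0.04 to 0.21 and Zc3h3 from 0.18 to 0.37. Depth limits the values of Gsdma2, Gsdma3, Gsdmc, Gsdmc2, Gsdmc3, Gsdmc4 and Pjvk, which had at most 4 counts in any sample.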

Other observations

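The annotation deposited with the table places 19 genes under the Gene Ontology term pyroptosis. Of these, 8 had enough counts, with a median log2 fold change of 0.11. They include Gsdma and Gsdmd, which were chosen on this contrast and from which nothing is read. None of the other 6 was called by edgeR at an FDR under 0.05, and none of them had an unadjusted p under 0.05. The larger KEGG set for NOD-like receptor signaling, to which Gsdmd belongs, holds 224 genes. None of the 117 that could be tested was called by edgeR, against 2.02% higher and 0.612% lower over all genes. An unadjusted p under 0.05 was found for 16, the chosen gene Gsdmd among them, against 17.1% of all genes tested, and 55 log2 fold changes were positive and 62 negative, with a median of -0.01.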
